A study of Gallus gallus with 12 samples.

Results

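The response of the chick pineal gland to light late in the subjective night was set against its response in the subjective day. The quantity described is the light effect at circadian time (CT) 22 minus the light effect at CT6, where a light effect is light minus dark on the log2 scale. It was formed for every probe set from 8 of the 12 arrays of the study, 2 each of the groups Pineal_CT22_L, Pineal_CT22_D, Pineal_CT6_L and Pineal_CT6_D. The array held 38439 probe sets besides its controls, and 23063 of them, those whose mean exceeded log2 3.73 (the 40th percentile), were tested. All groups were male chicks 8 days old, kept for 7 days with 12 h of light daily and then in constant darkness. The L groups received 1 h of light from the stated time and the D groups none, and glands were collected as the pulse ended. Each array carried RNA pooled from 6 glands, with no strain given, so the spread between arrays is that between pools and not between single birds. The remaining 4 arrays belong to CT14, early in the subjective night, and entered the estimate of the spread.

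The avian pineal gland contains photoreceptive cells with a clock of their own. It secretes melatonin at night, and light reaching it both lowers melatonin output and resets that clock, by an amount and in a direction that depend on the hour. Misfolded proteins in the cytosol induce heat shock chaperones through the factor HSF1. In the endoplasmic reticulum (ER) they set off the unfolded protein response, whose targets are ER chaperones and factors of protein degradation. The design asks which genes respond to light differently at the 2 hours.

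More genes passed the test for light at CT22 than at CT6, and the difference itself passed the test for a small set of genes led by chaperones. With 1 probe set per gene, the one with the highest mean, 32 of 10406 genes passed (0.308%), 23 with a higher light effect at CT22 (0.221%) and 9 with a lower one (0.0865%). Over all probe sets 57 passed (0.247%), 38 higher (0.165%) and 19 lower (0.0824%), by limma's moderated test with Benjamini-Hochberg adjusted p under 0.05. By comparison, light at CT22 alone changed 493 genes (4.74%), 234 higher (2.25%) and 259 lower (2.49%), and light at CT6 alone 34 genes (0.327%), 28 of them higher (0.269%). The median SE of the difference was 0.29, and 2543 probe sets lay under an unadjusted p of 0.05. Precision is limited by having 2 arrays per group. The median difference over all probe sets was -0.01. It was -0.13 with the values as deposited and -0.10 with arrays centred on their median, a scaling that called 28 probe sets higher and 46 lower. All 57 calls kept their sign under those scalings. In all 57, the 4 light-minus-dark pairs at CT22 did not overlap the 4 at CT6, against 25.3% of all probe sets tested. The 57 were called from these same arrays, so that count is a description and no further support.

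The 32 genes fall into 4 patterns. Light raised 19 of them at CT22 without passing the test at CT6. It raised 4 at both hours and more at CT22, namely BAG3, HSPA2, DNAJA4 and HSPA5. It lowered 8 at CT22 without passing at CT6, and it raised 1, CPLX4, at CT6 only. No gene passed in opposite directions at the 2 hours. The signs alone were opposite in 11 of the 23 genes with a higher light effect at CT22 and in 6 of the 9 with a lower one. In the 11 the light effect at CT6 ranged from -0.81 (SLCO1C1) to -0.09 (TPD52L1), and none passed there. The share of opposite signs over all genes was not counted, so no excess can be read from these counts. DNAJA1, among the 19, was just short at CT6 (adjusted p = 0.0528), where another of its probe sets passed (adjusted p = 0.0142). These patterns are built from the same arrays as the difference and are given as a description.

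**Figure D1:**
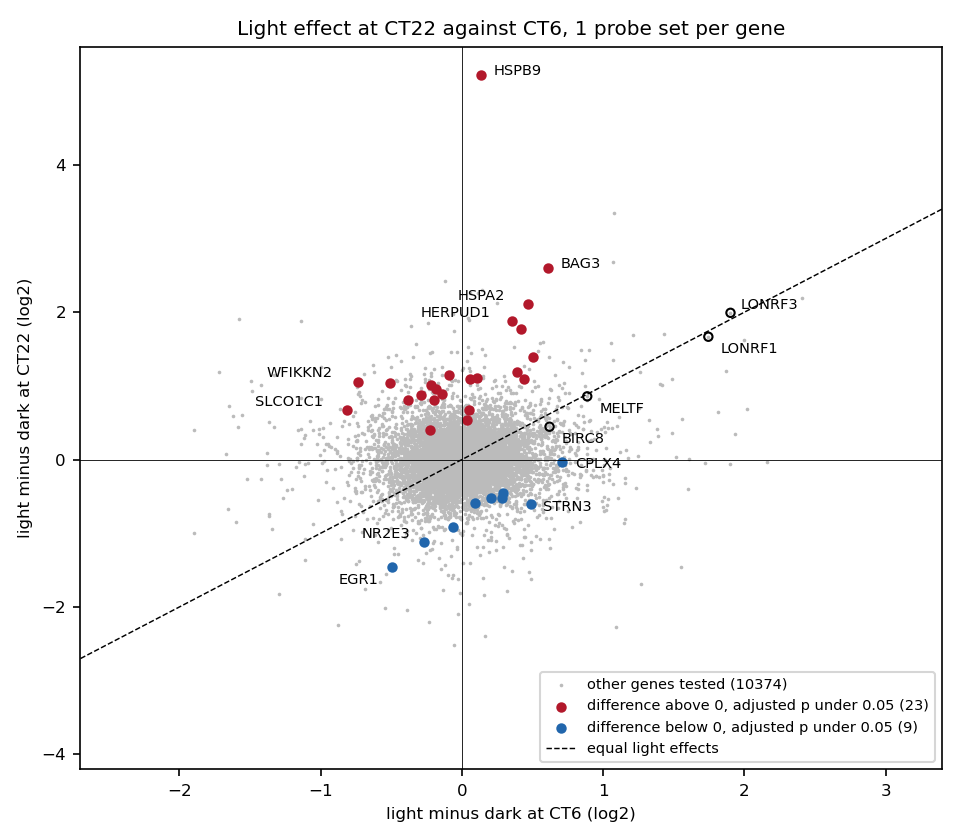
Light effect (light minus dark, log2) at CT6 on the horizontal axis and at CT22 on the vertical axis for each of 10406 genes, with the dashed line where both are equal. The 23 genes in red and the 9 in blue passed the test of the difference, and HSPB9 stands highest at 5.21 against 0.14. The open circles (LONRF3, LONRF1, MELTF and BIRC8) rose at both hours. They were picked for a difference nearest 0 and so lie near the line.

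HSPB9, a small heat shock protein, showed the widest gap. Its log2 intensity was 7.07 and 6.84 in the CT6 dark arrays, 7.20 and 6.98 in the CT6 light arrays, 6.71 and 6.87 in the CT22 dark arrays, and 11.92 and 12.08 in the CT22 light arrays. Both CT22 light arrays stood apart from the other 6, which overlapped among themselves. The light effect was 5.21 ± 0.13 (SE) at CT22 and 0.14 ± 0.13 at CT6, a difference of 5.08 ± 0.18 (adjusted p = 9.20e-09). A second HSPB9 probe set gave 4.78 (adjusted p = 6.13e-06).

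BAG3, a co-chaperone of Hsp70 that directs damaged proteins to autophagy, measured 8.74 and 8.54 in the CT6 dark arrays, 9.11 and 9.39 in the CT6 light arrays, 9.08 and 8.91 in the CT22 dark arrays, and 11.51 and 11.67 in the CT22 light arrays. Light raised it at both hours, by 0.61 ± 0.11 at CT6 (adjusted p = 0.0383) and by 2.60 ± 0.11 at CT22, and the difference was 1.98 ± 0.15 (adjusted p = 2.22e-05). HSPA2, an Hsp70 chaperone, measured 9.92 and 9.88, then 10.27 and 10.47 with light at CT6, and 10.50 and 10.54, then 12.64 and 12.63 with light at CT22. Its dark level was already higher at CT22, by 0.62 ± 0.08, and the difference of its light effects was 1.64 ± 0.11 (adjusted p = 6.91e-06). Both genes had light arrays above the dark arrays at each hour with no overlap.

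The J-domain proteins DNAJA4 and DNAJA1, which deliver clients to Hsp70, followed with smaller gaps. DNAJA4 measured 9.64 and 9.59 in the dark and 10.08 and 10.16 in light at CT6, and 10.18 and 10.23 in the dark and 11.62 and 11.59 in light at CT22. Its difference was 0.89 ± 0.10 (adjusted p = 0.00122). Further DNAJA4 probe sets, with means of 8.35, 4.11 and 3.85, gave 1.01 (adjusted p = 0.0144), 0.71 (adjusted p = 0.751) and -0.39 (adjusted p = 0.873). DNAJA1 measured 9.30 and 9.30 against 9.70 and 9.79 at CT6, and 9.96 and 9.91 against 11.00 and 11.06 at CT22, a difference of 0.65 ± 0.12 (adjusted p = 0.0417). For both, the dark level at CT22 lay close to the light level at CT6. SERPINH1, the collagen-binding chaperone Hsp47, which is induced by heat shock but resides in the ER, measured from 9.38 to 9.65 in the 6 other arrays and 10.51 and 10.76 in the CT22 light arrays. Its difference was 1.04 ± 0.14 (adjusted p = 0.0096). That call was lost without the second CT6 light array (1.01, adjusted p = 0.0548) and without the first CT22 dark array (0.98, adjusted p = 0.0588).

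Among 38 tested genes of the cytosolic heat shock list, these 6 had a higher light effect at CT22 and none a lower one. Over all genes the shares were 0.221% and 0.0865%. The list median of the difference was 0.17, against -0.02 over all genes. Above 0 lay 26 of the 38, against 4907 of all 10406 genes. At CT22 alone light raised 17 of the 38, against 2.25% of all genes. The list was chosen with earlier results of these data known, so these counts are a description. The other 12 lay below 0, the lowest at -1.405, and none of those passed. Some members with wide gaps above 0 did not pass either. HSPH1, an Hsp110 exchange factor, had light effects of 3.34 at CT22 and 1.08 at CT6, a difference of 2.27 ± 0.47 (adjusted p = 0.0719). Its 2 CT6 dark arrays lay far apart, at 5.46 and 6.95. HSPB8, the partner of BAG3, had a difference of 1.61 ± 0.46 (adjusted p = 0.185). HSPA8, the constitutive Hsp70, gave 0.37 ± 0.07 (adjusted p = 0.0587). Different probe sets of HSP90AA1, an Hsp90, disagreed: the brighter gave 0.11 ± 0.11 (adjusted p = 0.775) and another gave 0.64 (adjusted p = 0.0358).

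**Figure D2:**
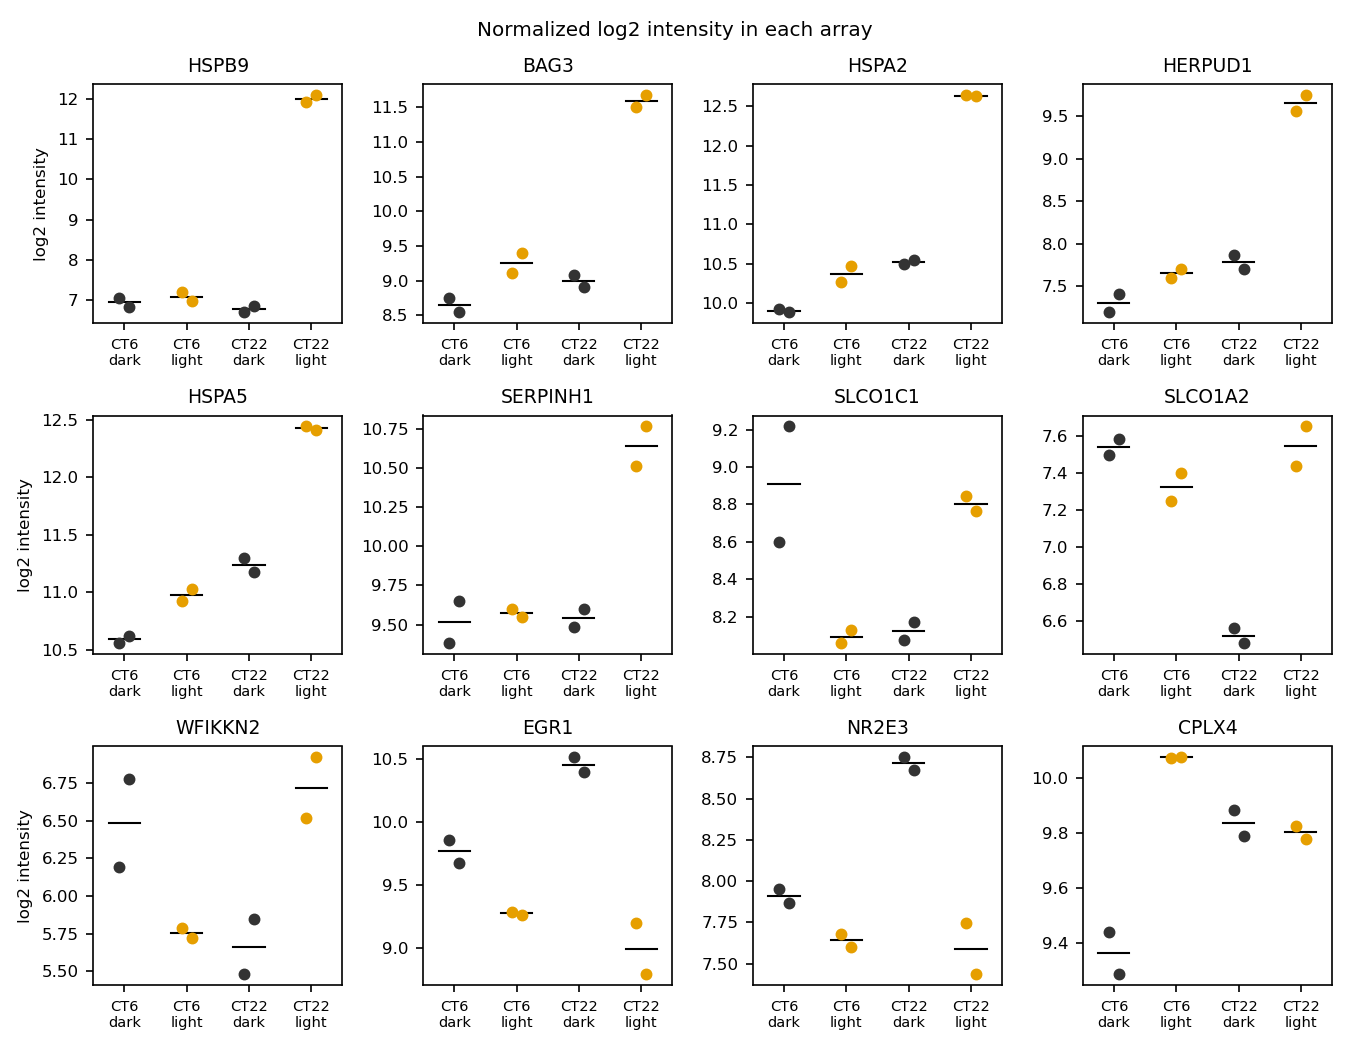
Normalized log2 intensity of 12 genes in the 8 arrays, dark arrays in black and light arrays in orange, with a line at each group's mean of 2 arrays; each panel has its own axis, which does not start at 0. HSPB9, BAG3, HSPA2 and HERPUD1 are high in both CT22 light arrays, SLCO1A2 is low in both CT22 dark arrays, and EGR1 and NR2E3 are high in both CT22 dark arrays.

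ER genes formed a second group. HERPUD1, a membrane protein of ER-associated degradation and a target of the unfolded protein response, measured 7.19 and 7.40 in the dark and 7.60 and 7.71 in light at CT6, and 7.86 and 7.70 in the dark and 9.56 and 9.74 in light at CT22. Light raised it by 1.88 ± 0.12 at CT22, its effect of 0.35 ± 0.12 at CT6 did not pass (adjusted p = 0.296), and the difference was 1.52 ± 0.16 (adjusted p = 0.00118). One of its 2 further probe sets also passed, at 1.25. HSPA5, the main Hsp70 of the ER, measured 10.56 and 10.62 against 10.92 and 11.03 at CT6, and 11.29 and 11.18 against 12.45 and 12.41 at CT22, a difference of 0.81 ± 0.10 (adjusted p = 0.00392). HSP90B1, the Hsp90 of the ER, measured 10.85 and 10.73 against 10.79 and 10.90 at CT6, and 11.28 and 11.09 against 11.87 and 11.83 at CT22, a difference of 0.61 ± 0.10 (adjusted p = 0.0322). At CT6 its dark and light arrays overlapped, while at CT22 they did not. A second HSP90B1 probe set gave 0.64 and did not pass (adjusted p = 0.114).

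The list of ER chaperones and unfolded protein response genes had 39 tested. Of these, the 3 had a higher light effect at CT22 and none a lower one, against 0.221% and 0.0865% of all genes. The list median was 0.18, with 28 members above 0, against 4907 of all 10406 genes. CRELD2, a secreted target of the same response, gave 0.84 ± 0.17 (adjusted p = 0.0711). XBP1, a transcription factor of the response, gave -0.11 ± 0.11 (adjusted p = 0.776). Of 19 tested ATF4 stress targets none passed, with a median of -0.04. The medians of the heat shock and ER lists stayed above 0 under each scaling, at 0.04 and 0.03 with the values as deposited and at 0.07 and 0.06 with arrays centred on their median, where the median of all probe sets itself lay lower, as given above.

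Several genes of no tested pathway list also had a higher light effect at CT22, and they are described together only for convenience. SLCO1C1, a transporter of thyroid hormone and organic anions, measured 8.60 and 9.22 in the dark and 8.06 and 8.13 in light at CT6, and 8.08 and 8.17 in the dark and 8.84 and 8.76 in light at CT22. Light and dark arrays thus stood in opposite order at the 2 hours. The light effect was 0.68 ± 0.16 at CT22 (adjusted p = 0.0301) and -0.81 ± 0.16 at CT6, just short of the threshold (adjusted p = 0.0533), and the difference was 1.49 ± 0.22 (adjusted p = 0.0139). Of 4 further SLCO1C1 probe sets, all had the same sign and 1 passed, at 1.32. The call was lost without either CT6 light array (1.46 and 1.53, adjusted p = 0.056 and 0.0558) and without the first CT22 dark array (1.44, adjusted p = 0.0656).

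Its relatives SLCO1A2 and SLCO1B1 carry bile salts and steroid conjugates in mammals. SLCO1A2 measured 7.49 and 7.58 in the dark and 7.25 and 7.40 in light at CT6, and 6.57 and 6.48 in the dark and 7.43 and 7.65 in light at CT22. For SLCO1A2 the CT22 dark arrays alone were low. The level in the dark was lower at CT22 (-1.01 ± 0.13, adjusted p = 0.00183), while the level in light was 0.22 ± 0.13 higher and did not pass (adjusted p = 0.462). SLCO1B1 had a gap of similar size in the dark (-0.52 ± 0.13, adjusted p = 0.0946) and in light (0.51 ± 0.13, adjusted p = 0.0564), and neither passed. The difference of light effects was 1.23 ± 0.19 (adjusted p = 0.0144) for SLCO1A2 and 1.03 ± 0.19 (adjusted p = 0.0417) for SLCO1B1.

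ATP1B1, the beta subunit of the sodium pump, measured 9.32 and 9.52 in the dark and 9.18 and 9.29 in light at CT6, and 8.85 and 9.18 in the dark and 9.79 and 10.16 in light at CT22. Its difference was 1.14 ± 0.19 (adjusted p = 0.0322). WFIKKN2, a secreted antagonist of myostatin, measured 6.19 and 6.78 against 5.79 and 5.72 at CT6, and 5.48 and 5.84 against 6.52 and 6.92 at CT22, a difference of 1.79 ± 0.31 (adjusted p = 0.0324). In WFIKKN2, as in SLCO1C1, the CT6 dark arrays and the CT22 light arrays were the high ones. Also higher were METTL7A, a methyltransferase of the ER and lipid droplets (1.16 ± 0.16, adjusted p = 0.0096), CAPSL, a calcium-binding protein (1.19 ± 0.22), TPD52L1, of the tumor protein D52 family (1.24 ± 0.21), and LARP4B, an RNA-binding protein (1.55 ± 0.25, adjusted p = 0.0284). All 4 had a light effect above 0 at CT22 and below 0 at CT6, and none passed at CT6. Further probe sets did not pass for TPD52L1 (1.24, adjusted p = 0.119) or LARP4B (1.38 and 1.17, adjusted p = 0.081 and 0.185).

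Of 10 tested markers of choroid plexus 7 lay above 0, against 4907 of all 10406 genes, and 3 below. None of these markers passed, with a median of 0.18. SLC13A4, a sulfate transporter, gave 0.86 ± 0.17 (adjusted p = 0.0665), the folate receptor gene FOLR1 gave 1.06 ± 0.24 (adjusted p = 0.0928), and TTR, the abundant transthyretin, gave 0.07 ± 0.09. The lowest were the water channel gene AQP1 at -0.48 ± 0.19 (adjusted p = 0.359) and the prolactin receptor gene PRLR at -0.26 ± 0.17 (adjusted p = 0.626). The summed linear intensity of the 11 markers on the array was 17248 and 18992 in the CT6 dark arrays, 16392 and 16944 with light at CT6, 16583 and 16743 in the dark at CT22, and 17730 and 17958 with light at CT22. The CT6 dark and CT22 light arrays were the higher ones, as for SLCO1C1. A sum weighs bright markers most, so its order need not be that of each marker. SLC13A4 measured 11.46 and 11.87, then 11.27 and 11.19 with light at CT6, and 11.35 and 11.41, then 11.71 and 11.91 with light at CT22. TTR and OTX2, brighter still, had group means from 12.87 to 12.96 and from 11.77 to 11.89 at these hours. One of the markers, OTX2, is also on the list for pineal photoreceptor-like cells. None of the markers was at 0, and 10 of 11 were above the filter. Their part in the SLCO1C1 result was not tested, and in these pooled glands more cells of a type and more RNA per cell cannot be told apart.

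P4HA2, a subunit of the prolyl hydroxylase that matures collagen and a target of the hypoxia response, measured 5.75 and 6.08 against 6.34 and 6.33 at CT6, and 6.42 and 6.03 against 7.91 and 8.10 at CT22. The CT22 light arrays alone were high, and the difference was 1.36 ± 0.25 (adjusted p = 0.0417). A second P4HA2 probe set gave 0.88 and did not pass (adjusted p = 0.201). P4HA2 was the 1 gene of 28 tested in the list of glycolysis and the hypoxia response to pass, against 0.308% of all genes. LDHA, lactate dehydrogenase of the same list, lay in the other direction at -0.84 ± 0.16 and did not pass (adjusted p = 0.051). COL1A2, a chain of type I collagen outside the naming rule and picked after its value was seen, gave 0.62 ± 0.11 (adjusted p = 0.0399), and its partner COL1A1 gave 0.63 (adjusted p = 0.0853). COL1A2 was the 1 of 17 fibroblast and meninges markers to pass, against 0.308% of all genes. Against 4907 of all 10406 genes, 12 of these markers lay above 0, with a median of 0.15. Their summed intensity ranged from 18230 to 18347 in the CT6 dark arrays, from 18382 to 19131 with light at CT6, from 16398 to 18104 in the dark at CT22 and from 18276 to 18285 with light at CT22. All 17 were above the filter, and their part in the collagen result was not tested. Besides COL1A2, the genes that passed outside the naming rule were GLIPR1L, PDE10A and PTGDS, at 1.01, 0.99 and 0.50.

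Of the 9 genes with a lower light effect at CT22, the dark level at CT22 lay above that at CT6 in all 9. It passed the threshold in 4, against 90 of all 10406 genes higher between the dark groups. The light level lay below that at CT6 in 8 and passed in 5, against 248 of all 10406 genes lower between the light groups. These gaps make up the difference by which the 9 were picked, so the counts are a description. EGR1, an early response transcription factor, measured 9.85 and 9.68 in the dark and 9.28 and 9.26 in light at CT6, and 10.51 and 10.39 in the dark and 9.19 and 8.79 in light at CT22. Its CT22 dark arrays were the high ones, and levels in light did not differ past the threshold between the hours (-0.28 ± 0.13, adjusted p = 0.299). Light lowered EGR1 at CT22 (-1.46 ± 0.13), the value at CT6 was -0.49 ± 0.13 (adjusted p = 0.159), and the difference was -0.97 ± 0.18 (adjusted p = 0.0491). EGR1 was the 1 of 28 tested immediate early genes to pass, against 0.308% of all genes, in a list with a median of -0.07. A second EGR1 probe set gave -1.09 and did not pass (adjusted p = 0.0532).

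NR2E3, a nuclear receptor of photoreceptor cells, measured 7.95 and 7.87 against 7.68 and 7.60 at CT6, and 8.75 and 8.68 against 7.74 and 7.44 at CT22. Here too the CT22 dark arrays alone were high, with a dark level 0.80 ± 0.11 above that of CT6 (adjusted p = 0.00288), and the difference of light effects was -0.85 ± 0.16 (adjusted p = 0.0491). RAPGEF5, an exchange factor for the GTPase Rap, had the same arrangement, with a dark level 0.74 ± 0.09 higher at CT22 and a difference of -0.68 ± 0.12 (adjusted p = 0.0417). Markers of pineal photoreceptor-like cells lay below 0 in 9 of 12 tested, against 5495 of all 10406 genes. None of these markers passed, with a median of -0.15. Their summed intensity ranged from 28345 to 28903 in the dark and from 27587 to 29160 in light at CT6, and from 29278 to 30173 in the dark and from 25243 to 26959 in light at CT22. Their part in the NR2E3 result was not tested. These markers held to the tissue label: TPH1, the first enzyme of serotonin synthesis, lay at 12.93 or above in the 8 arrays, and ASMT, the last enzyme of melatonin synthesis, at 12.72 or above, while SAG, the photoreceptor arrestin, lay between 3.65 and 4.60, near the filter.

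CPLX4, a complexin of ribbon synapses in the mammalian retina, measured 9.44 and 9.29 in the dark and 10.08 and 10.08 in light at CT6, and 9.88 and 9.79 in the dark and 9.83 and 9.78 in light at CT22. Light and dark arrays overlapped at CT22 and stood apart at CT6, where light raised it by 0.71 ± 0.08 (adjusted p = 0.000887). The difference was -0.75 ± 0.11 (adjusted p = 0.0114). It did not pass without the second CT6 light array (-0.75, adjusted p = 0.0558), the first CT22 dark array (-0.70, adjusted p = 0.0656) or the second CT22 light array (-0.72, adjusted p = 0.0503). CA10, a secreted carbonic anhydrase-related protein of synapses, gave -0.80 ± 0.14 (adjusted p = 0.0322). Further CA10 probe sets gave -0.61 (adjusted p = 0.346) and -0.16 (adjusted p = 0.942). Of 10 tested neuron markers 8 lay below 0, against 5495 of all 10406 genes. None of these markers passed, with a median of -0.26. Their summed intensity was 4402 and 4075 in the CT6 dark arrays and 4313 and 4662 with light at CT6. At CT22 it was 4172 and 4273 in the dark and 4246 and 3537 with light. What part these markers had was not tested.

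NDRG1, a gene that answers hypoxia and other stresses, measured 11.77 and 11.57 in the dark and 11.86 and 11.89 in light at CT6, and 11.82 and 11.76 in the dark and 11.25 and 11.28 in light at CT22. Its CT22 light arrays were the low ones, and the difference was -0.73 ± 0.09 (adjusted p = 0.00517). Its 2 further probe sets gave -0.32 and -0.34 and did not pass. HECTD2, a ubiquitin ligase, was by its brightest probe set also low only with light at CT22, at 7.74 and 7.51 against 8.32 to 8.59 elsewhere, with a difference of -0.86 ± 0.15 (adjusted p = 0.0322). Its 2 further probe sets gave -0.74 (adjusted p = 0.171) and -0.05 (adjusted p = 0.974). KLF15, a metabolic transcription factor, gave -0.74 ± 0.12 (adjusted p = 0.0322), and a second KLF15 probe set gave -0.86 (adjusted p = 0.454). STRN3, a scaffold of phosphatase complexes, gave -1.10 ± 0.19 (adjusted p = 0.0322), but a second STRN3 probe set gave -0.13 (adjusted p = 0.783).

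**Figure D3:**
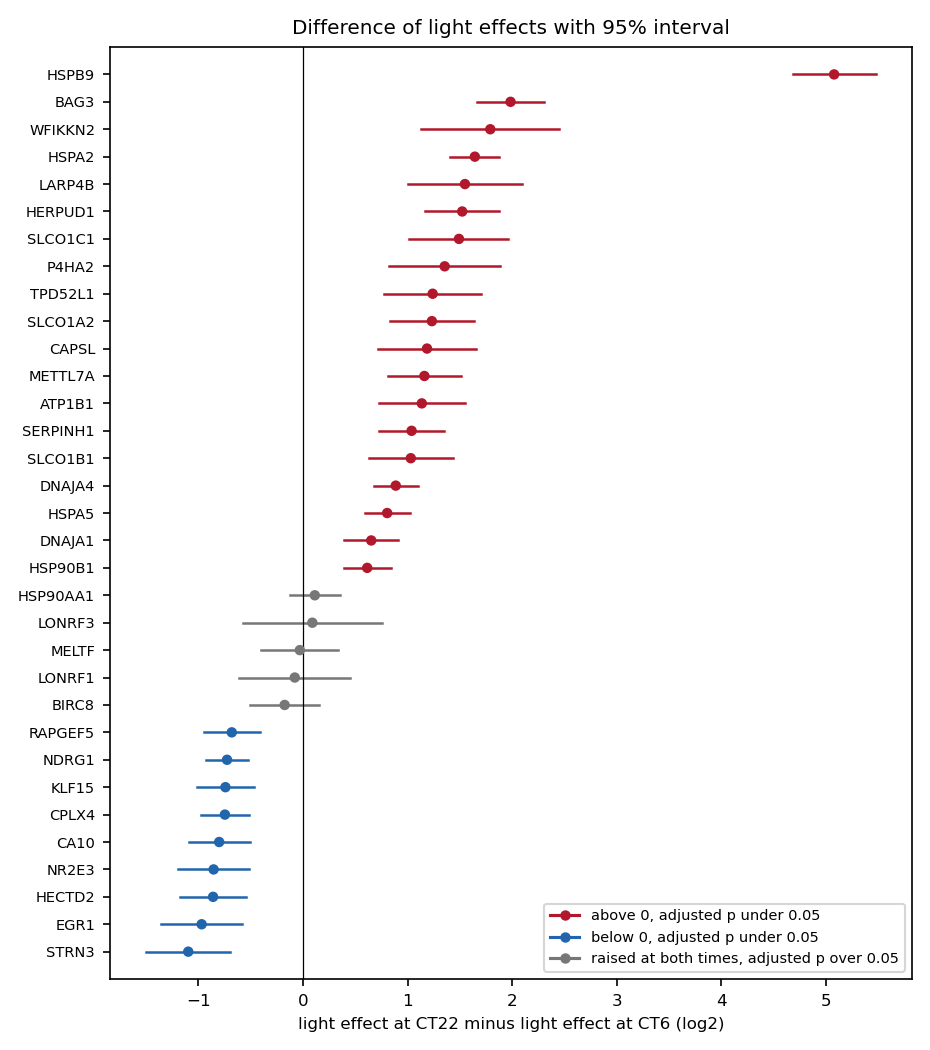
Light effect at CT22 minus light effect at CT6 (log2) for the 33 named genes, with the 95% interval of the limma fit; red and blue passed the test, grey did not. HSPB9 has its interval from 4.68 to 5.47. The 5 grey genes, raised by light at both hours, were picked for a difference nearest 0. Their intervals include 0, which follows from that choice.

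The gap could arise from levels in the dark, in light or both. Of the 23 genes with a higher light effect at CT22, the light level was higher at CT22 than at CT6 in all 23, past the threshold in 18, against 4.14% of all genes called between the light groups. The dark level was lower at CT22 in 14 and higher in 9, past the threshold in 10, against 1.46% of all genes called between the dark groups. The dark gap was the larger of the 2 in 7 genes, among them SLCO1A2 (-1.01 in the dark, 0.22 in light), PTGDS, a prostaglandin D synthase (-0.45 and 0.05), and GLIPR1L (-0.72 and 0.30). HERPUD1 and the chaperone genes BAG3, HSPA2, DNAJA4, DNAJA1, HSPA5 and HSP90B1 had a dark level above that of CT6, by 0.35 to 0.65. The light level of these genes lay above that of CT6 by 1.01 to 2.34. Their dark gap did not pass for BAG3 (adjusted p = 0.173) or HERPUD1 (adjusted p = 0.0777). The chaperone genes HSPB9 and SERPINH1 had dark gaps of -0.17 and 0.03 (adjusted p = 0.707 and 0.969) and light gaps of 4.91 and 1.06. Of the 9 genes with a lower light effect, the dark gap was the larger in 4, namely RAPGEF5, CPLX4, NR2E3 and EGR1. These shares describe how each difference is composed and carry no test of their own.

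**Figure D4:**
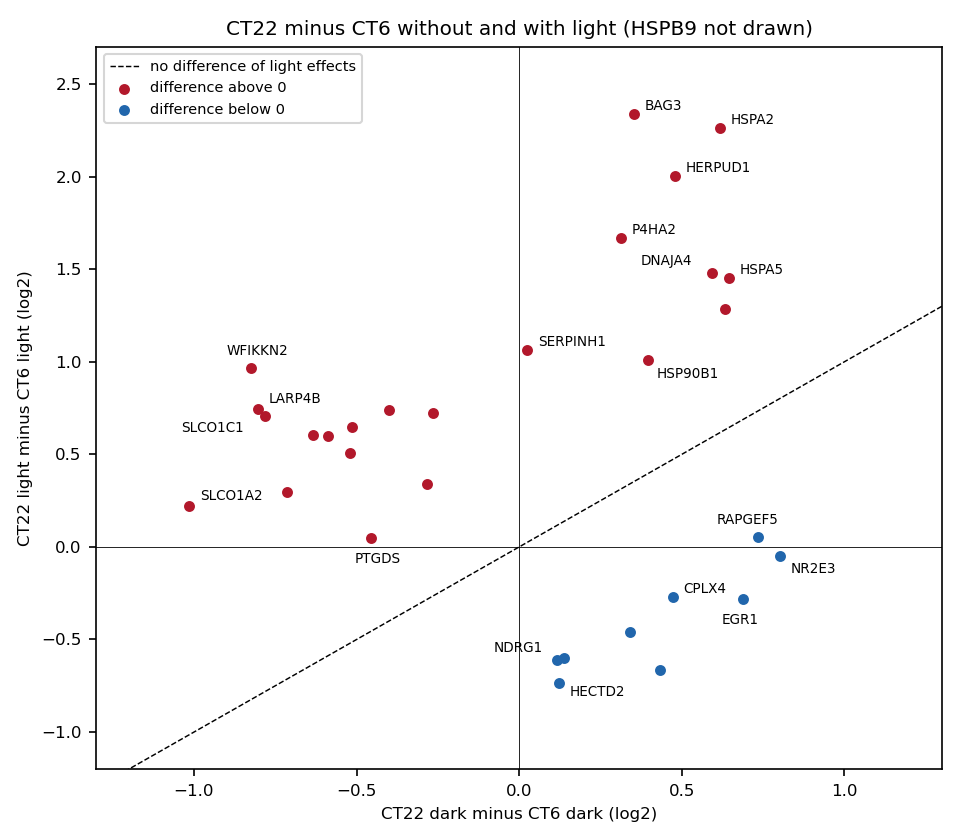
Level at CT22 minus level at CT6 in the dark (horizontal, log2) and in light (vertical, log2) for the genes that passed, with HSPB9 (-0.17 and 4.91) left out for scale; the dashed line marks equal gaps. The chaperone genes drawn lie above 0 on both axes, SERPINH1 at only 0.03 in the dark. SLCO1C1 and SLCO1A2 lie left of 0. EGR1, NR2E3 and RAPGEF5 lie right of 0, with a light gap between -0.28 and 0.06.

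Light also raised 20 genes at both hours, where it raised 0.269% of all genes at CT6 and 2.25% at CT22. The difference passed in 4 of the 20, each higher at CT22, against 0.221% of all genes. Over the 20 the difference ranged from -0.57 to 1.98, with 11 above 0. The 5 genes named from these 20, HSP90AA1 (given above) among them, were picked for a difference nearest 0. That they lie near 0 follows from that choice. LONRF3, a RING-finger protein, measured 5.58 and 5.70 in the dark and 7.25 and 7.83 in light at CT6, and 5.03 and 5.27 in the dark and 6.84 and 7.44 in light at CT22. Its difference was 0.09, with a 95% interval from -0.58 to 0.76. LONRF1, of the same family, gave -0.08 (-0.61 to 0.45), MELTF, an iron-binding surface protein, -0.03 (-0.40 to 0.34), and BIRC8, of the inhibitor of apoptosis family, -0.17 (-0.51 to 0.16). These intervals leave room for differences of about the size seen for HSP90B1 in LONRF3, but not in MELTF.

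Among 22 tested genes of sterol synthesis and uptake none passed for the difference, with a median of 0.14. Light raised 5 of them at both hours, against 20 of all 10406 genes. HMGCS1, an early enzyme of cholesterol synthesis, gave 0.52 ± 0.13 (adjusted p = 0.121), FDFT1, which makes squalene, gave 0.60 ± 0.15 (adjusted p = 0.124), and INSIG1, the sterol-sensing brake, gave 0.48 ± 0.15 (adjusted p = 0.22). Of the 22, 12 lay above 0 and 10 below. The lowest were CYP51A1 at -1.76 ± 0.84 (adjusted p = 0.464) and MVD at -1.34 ± 0.58 (adjusted p = 0.41). Both were dim and uneven in the CT22 light arrays, at 2.30 and 4.48 for CYP51A1 and at 3.80 and 5.12 for MVD. Limma called 0 of the 22, while 6 lay under an unadjusted p of 0.05, MVD among them. Of all 23063 probe sets tested, 2543 lay under it. None of 21 tested clock genes passed either, with a median of -0.15. Under an unadjusted p of 0.05 lay 4 of the 21, against the same 2543 of 23063 probe sets. BHLHE40 and BHLHE41, repressors within the clock, gave -1.03 ± 0.24 (adjusted p = 0.1) and -0.63 ± 0.14 (adjusted p = 0.0893). CLOCK, also among those 4, lay in the other direction at 0.51 ± 0.19 (adjusted p = 0.346), and 8 of the 21 lay above 0. NFIL3, a repressor of clock output that rose at both hours, gave 0.27 ± 0.15 (adjusted p = 0.55). AANAT, the rhythmic enzyme of melatonin synthesis, measured 8.78 and 8.74 against 8.46 and 8.58 at CT6 and 10.21 and 10.08 against 9.28 and 9.36 at CT22. Its dark level was the highest at CT22, light lowered it there (-0.83 ± 0.10, adjusted p = 0.000556), and the difference of -0.59 ± 0.14 did not pass (adjusted p = 0.124).

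No member passed in the lists of fatty acid synthesis (17 tested, median -0.06), melatonin synthesis (23, -0.05), phototransduction (34, -0.04), proteasome and ubiquitin (35, -0.07), MAPK phosphatases and feedback (22, -0.02), glucocorticoid targets (13, -0.23), cytosolic ribosome (52, -0.00) and oxidative phosphorylation (35, -0.01). The same held for markers of erythrocytes (7, -0.13), lymphocytes (12, -0.31), macrophages and microglia (12, -0.30), endothelium and mural cells (14, -0.16), glia (11, 0.06) and skeletal muscle (7, 0.01).

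**Figure D5:**
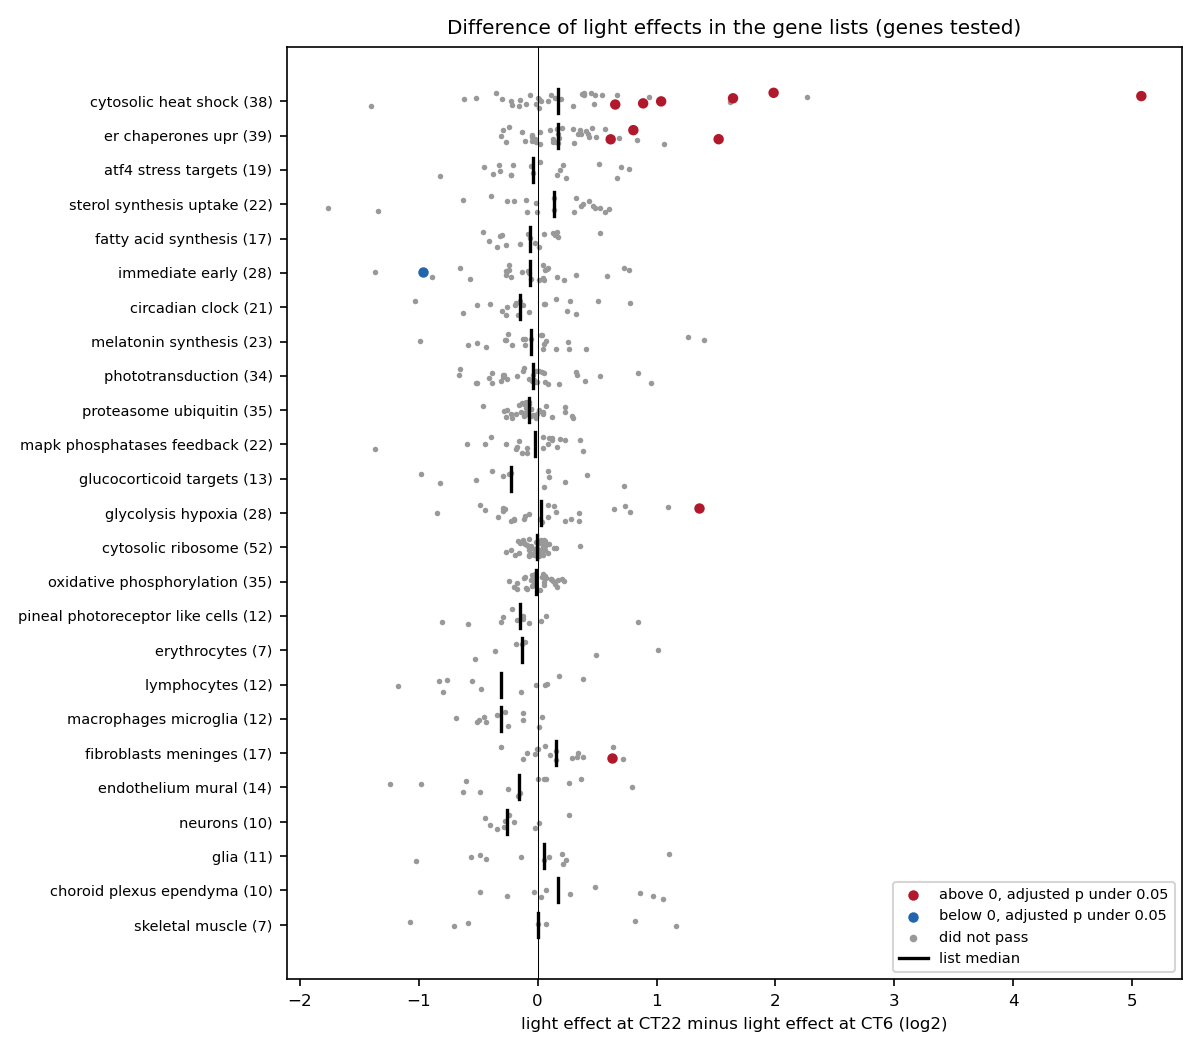
Light effect at CT22 minus light effect at CT6 (log2) for each tested gene of the 25 lists, 1 row per list with the number tested in brackets, and a black bar at the list median. Red and blue points passed the test; the heat shock list holds 6 red points and the ER list 3, and the medians of the other lists lie between -0.31 and 0.18.

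At CT14, whose arrays did not enter the difference, light raised 9 of the 23 genes (1.39% of all genes) and lowered 2 (0.692% of all genes). The 9 were BAG3, HSPA2, HERPUD1, SERPINH1, PDE10A, DNAJA4, HSPA5, DNAJA1 and HSP90B1, and the 2 were SLCO1C1 and METTL7A. HSPB9 had a light effect of 0.36 at CT14 (adjusted p = 0.221), nearer to that of CT6 than to that of CT22. In the same sense 17 of the 23 genes lay nearer to CT6, as did all 9 genes with a lower light effect at CT22. These genes were picked for a gap between CT22 and CT6. The light effect was larger in size at CT22 in 22 of the 23 and in 8 of the 9. The share of all genes nearer to CT6 was not counted, so these counts do not show that CT14 resembles CT6. CPLX4 rose by 1.52 at CT14 (adjusted p = 1.94e-07), more than at CT6, and the light effect of EGR1 at CT14 was -0.83 (adjusted p = 0.00349).

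Replicate arrays of the 4 groups correlated with r from 0.934 to 0.942, and array medians as deposited ranged from 21.6 to 28.9, the highest being the first CT22 dark array. The ratio of 3-prime to 5-prime actin signal lay between 3.62 and 4.23 in the 8 arrays. Single arrays moved the count of 57 by over 1.5 times. It was 19 without the first CT22 dark array, 29 without the second, 29 without the second CT22 light array, 34 without the second CT6 dark array, 34 without the first CT6 light array, 21 without the second CT6 light array and 117 without the first CT6 dark array. HSPB9, BAG3 and HSPA2 kept their call under each of 25 alternatives. HERPUD1, METTL7A, DNAJA4, HSPA5 and NDRG1 also kept it whichever of the 12 arrays was left out. The calls of P4HA2, CAPSL, SLCO1B1, DNAJA1, HSP90B1, RAPGEF5, CA10, NR2E3, HECTD2 and EGR1 were lost under most of the alternatives, with their sign kept in each. Leaving out arrays 1 at a time, those 10 ranged from 0.52 (HSP90B1, lowest) to 1.55 (P4HA2, highest) where above 0 and from -1.17 (EGR1) to -0.59 (RAPGEF5) where below. Those of WFIKKN2, LARP4B, TPD52L1, SLCO1A2, ATP1B1, KLF15 and STRN3 were lost without any 1 of 5 to 8 of the 12 arrays. The first CT22 dark array was among these for all 7, and without it the difference was 1.61 for WFIKKN2, 1.27 for LARP4B, 1.01 for TPD52L1, 1.27 for SLCO1A2, 0.97 for ATP1B1, -0.80 for KLF15 and -1.15 for STRN3, with adjusted p from 0.0588 to 0.134.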

How the data were processed

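Affymetrix chicken arrays were hybridised with labelled RNA of pooled pineal glands. The authors deposited 1 linear intensity per probe set and array. The summarising software is not given in the sources used here. In those deposited intensities 6.24% of values lay under 1. Values were taken to log2 and quantile normalized over 12 arrays, controls included, and linear values under 1 were set to 1. This removes any change shared by most probe sets. A linear model of 6 group means per probe set (limma 3.58.1, R 4.3.3) had 6 residual degrees of freedom and a variance trend, and p-values were adjusted over all 23063 probe sets tested (Benjamini-Hochberg, 0.05).

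Genes came from the platform annotation: 27168 probe sets had 1 gene, 177 several and 11094 none, and 13 of the 57 that passed were unnamed. The rule for named genes took up to 15 genes per direction among those past the threshold with light-minus-dark pairs not overlapping between the hours (25.3% of all probe sets did not overlap), list members past the threshold, genes passing in opposite directions at the 2 hours, and 5 raised at both hours with a difference nearest 0. List members that did not pass are given as examples from their lists. Members and lists were chosen with earlier results of these data known. The fit was tested on simulated data. Promoter sequences were not analysed here. The labels call the 2 arrays of a group biological samples. Their numbers did not pair samples across groups.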

Additional observations from a re-analysis of the deposited data

Results flagged for a closer look

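The named genes below were singled out because the light effect differed between the hours by the test of the difference itself. As linear ratios of the fold change at CT22 to that at CT6, HSPB9 stood at 33.8, BAG3 at 3.96 and HSPA2 at 3.12. HERPUD1, of ER-associated degradation, had a ratio of 2.87. Among the other chaperone genes it was 2.05 for SERPINH1, 1.85 for DNAJA4, 1.75 for HSPA5, 1.57 for DNAJA1 and 1.53 for HSP90B1. Further ratios were 3.46 for WFIKKN2, 2.81 for SLCO1C1, 2.35 for SLCO1A2, 2.2 for ATP1B1 and 2.04 for SLCO1B1. The ratio was 2.93 for LARP4B, 2.56 for P4HA2, 2.36 for TPD52L1, 2.28 for CAPSL and 2.24 for METTL7A. Ratios below 1 belonged to RAPGEF5 (0.624), NDRG1 (0.605), KLF15 (0.598), CPLX4 (0.596), CA10 (0.574), NR2E3 (0.553), HECTD2 (0.551), EGR1 (0.511) and STRN3 (0.468).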

How the results depend on the processing

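All 57 calls kept their sign under each alternative run over probe sets, but their number moved. Against 38 higher and 19 lower, the values as deposited gave 13 and 8, no filter on dim probe sets gave 10 and 2, and a filter at the 60th percentile gave 61 and 36. Arrays centred on their median called 46 lower. Without a variance trend limma called 6 higher and 0 lower, with 2294 under an unadjusted p of 0.05. With the actin ratio as a covariate 100 were higher and 45 lower, and with the 8 arrays alone 12 were lower. Leaving out 1 array at a time gave 13 to 86 higher and 4 to 31 lower. The cause was not tested, save that no filter means more tests. Replicate numbers did not pair the samples (r from -0.027 to 0.023), and a replicate block gave 33 higher and 14 lower. Of 700 pairs of a named gene and an alternative 466 kept the call, and none reversed. Normalizing without control probe sets, an alternative chosen after seeing the data, gave 36 and 19. Promoter motifs, listed beforehand, were not run. With 2 arrays per group, dim or small differences can be missed, and detection calls were not used here.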

Other observations

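A few genes passed only through a probe set that was not the brightest of the gene, and were picked after their values were seen. Higher light effects at CT22 were found this way for EPB41L5, a protein of cell polarity (1.33, adjusted p = 0.0495), and ENPP2, the secreted enzyme autotaxin (1.14, adjusted p = 0.029). Lower ones were found for SAT1, an enzyme of polyamine breakdown (-1.23, adjusted p = 0.0255), the dystrophin gene DMD (-0.87, adjusted p = 0.0144) and CLSTN3, a synaptic adhesion protein (-0.80, adjusted p = 0.0383). Of 26 further probe sets of the genes named for the difference, 25 had the same sign, and the exception belonged to DNAJA4. The test called 6 of the 26 in the direction of their gene and 0 in the other. All 6 belonged to genes with a higher light effect at CT22. Over all probe sets tested 0.165% were called higher and 0.0824% lower. The 26 measure genes picked for the difference on the same arrays, so their agreement is a description and no further support. No further probe set passed for EGR1, NDRG1, CA10, HECTD2, KLF15 or STRN3, named for a lower one.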
